A study of Mus musculus with 8 samples.

Results

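TNF receptors, death receptors, the death ligand TRAIL and their first adaptors were described in mouse spleen neutrophils as 8 genes, which are Tnfrsf10b, Fas, Tnfrsf1a, Tnfrsf1b, Ltbr, Tnfsf10, Fadd and Tradd, of 55414 genes in the count data. Tnfrsf10b was selected on its measured level, which was higher in Cxcr2-/- than in WT libraries, and the other members were added as its relatives by symbol. The values of Tnfrsf10b in this comparison are therefore given as a description without a test. RNAseq was done on spleen neutrophils of 4 WT and 4 Cxcr2-/- mice with 1 library each, after enrichment on CD11b and a sort for CD45, CD11b and Ly6G without F4/80, and the comparison asks how loss of the chemokine receptor Cxcr2 changes their RNA. All mice were on the FVB background, aged 10 weeks and untreated, and the deletion was present in every cell of the knock-out animals, so that changes that begin in other cells are part of the comparison.

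Receptors of the TNF superfamily are surface proteins that bind trimeric ligands. Those with a death domain, among them Fas, Tnfrsf1a (TNFR1) and Tnfrsf10b (the mouse TRAIL receptor DR5), recruit the adaptors Fadd or Tradd and, through Fadd, the initiator caspase Casp8, while receptors without one, such as Tnfrsf1b (TNFR2) and Ltbr, signal through TRAF proteins to NF-kB. Neutrophils are short-lived cells whose death can be hastened by Fas ligand, TRAIL or TNF.

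Each library held between 34220182 and 46233555 counts on genes in WT and between 37549648 and 43789253 in Cxcr2-/- mice. Levels are in CPM, the count of a gene relative to the effective library size that TMM normalization gives, and errors of levels are SDs with n = 4 in each group. Fold changes are Cxcr2-/- over WT with the standard error (SE) of edgeR's fit. RNA of Cxcr2 itself went from 1956 ± 221 CPM in WT to 17.1 ± 3.46 CPM in Cxcr2-/- libraries. The neutrophil markers Ly6g (226 ± 41.5 and 539 ± 50.5 CPM) and S100a8 (12054 ± 2500 and 28419 ± 1267 CPM) were present in both groups. All 11 markers of immature granulocytes rose, their summed level being 19784.5 to 23829 CPM in WT and 45445 to 64586 CPM in Cxcr2-/- libraries. Among them the primary granule enzyme Mpo spanned 1.13 to 6.25 CPM in WT and 19.1 to 145.8 CPM in Cxcr2-/- libraries. The 2 groups of cells therefore differed in stage markers, and in bulk RNA fewer cells of a kind and less RNA per cell cannot be told apart.

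Of the 6 members besides Tnfrsf10b that passed the filter on low counts, 2 were higher (Fadd and Tradd), 3 were lower (Fas, Tnfrsf1b and Tnfrsf1a) and Ltbr did not pass at an adjusted p under 0.05 (quasi-likelihood test of edgeR, adjusted over all genes by Benjamini-Hochberg). Among all 16778 genes tested, 44.7% passed, 23.7% as higher and 21% as lower, so that a change in either direction was common in these libraries. With a change of at least 1.5-fold, 31.3% of all genes passed, 15.7% in each direction, and among these members Fadd, Fas and Tnfrsf1b did. The groups did not overlap in 41.6% of all genes, 22.5% as higher and 19.1% as lower, and in 4 of these 6 members. Tnfrsf10b is left out of these counts.

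**Figure D1:**
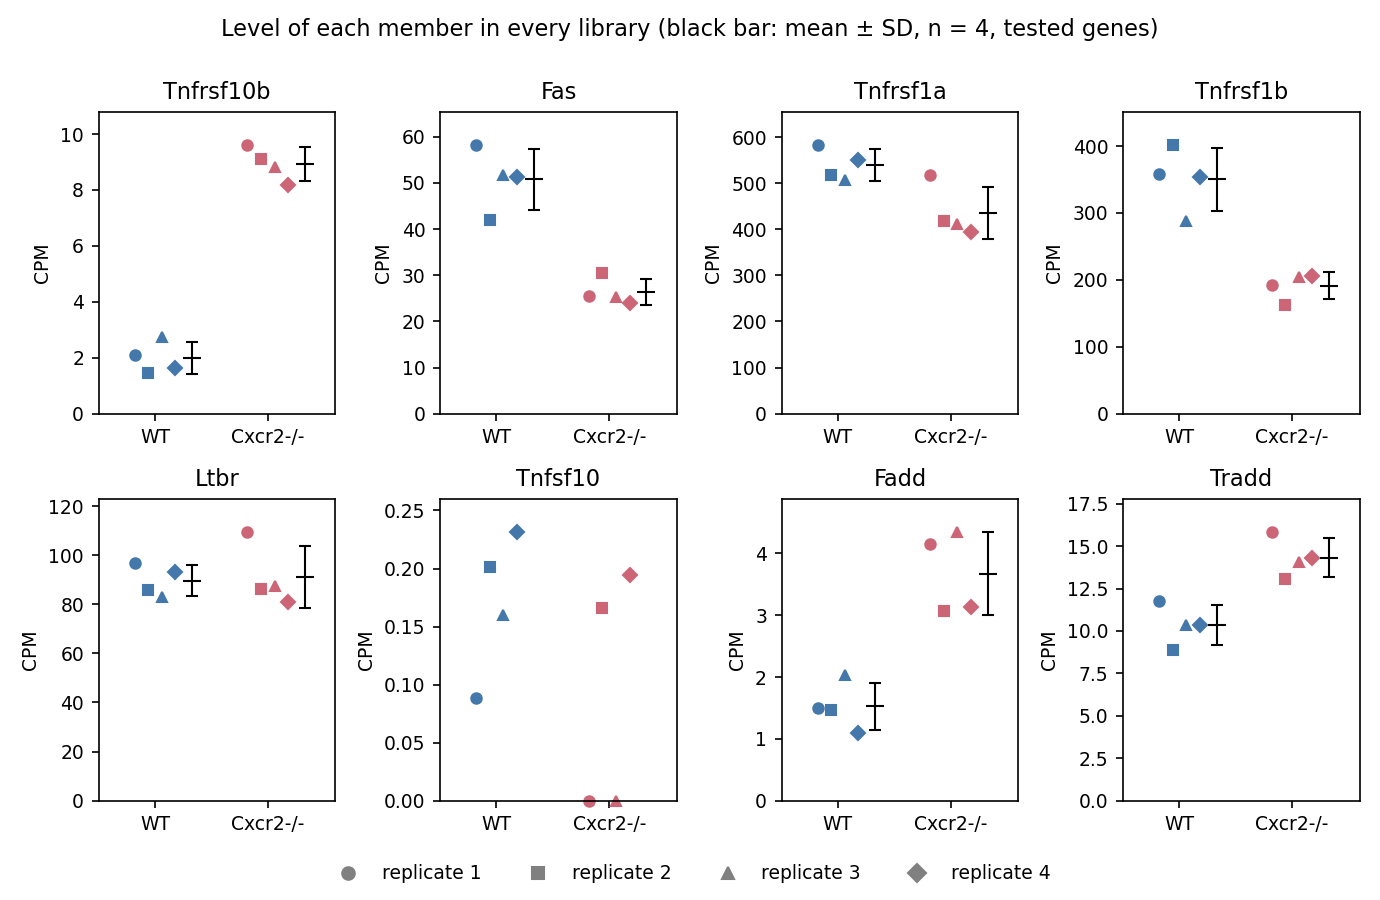
Level of each member in CPM (vertical axes, from 0) in the 4 WT and 4 Cxcr2-/- libraries, 1 point per mouse with a marker for each replicate number and, for the tested genes, a bar for the mean ± SD. The groups are apart for Tnfrsf10b, Fas, Tnfrsf1b, Fadd and Tradd and overlap for Tnfrsf1a, Ltbr and Tnfsf10.

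Tnfrsf10b, the receptor for TRAIL, was a low gene in WT neutrophils and 4.50-fold higher in Cxcr2-/- neutrophils. It is listed as ENSMUSG00000022074 and lies at chr14:69767472-69784411 of GRCm38. Its level was 2.10, 1.47, 2.75 and 1.62 CPM in WT mice 1 to 4 and 9.61, 9.10, 8.82 and 8.17 CPM in Cxcr2-/- mice 1 to 4. All Cxcr2-/- libraries thus lay above all WT libraries, and they were close to each other. The counts behind these levels were 56 to 103 per WT library and 329 to 380 per Cxcr2-/- library. The mean went from 1.98 ± 0.579 to 8.92 ± 0.601 CPM, a log2 fold change of 2.17 (SE 0.20). The coefficient of variation between libraries was 29.1% in WT and 6.73% in Cxcr2-/- mice. It includes counting error, which is relatively larger at the lower WT counts, so it does not measure the spread between mice alone. Markers of immature granulocytes ordered the Cxcr2-/- mice in different ways. The primary granule gene Mpo was highest in mouse 4 (145.8 CPM), which had the lowest Tnfrsf10b. The secondary granule genes Ltf (26104, 21782, 18959 and 17392 CPM in Cxcr2-/- mice 1 to 4) and Camp (7460, 6089, 5955 and 4757 CPM) and the granulocyte factor Cebpe (252, 187, 165 and 138 CPM) had the same order as Tnfrsf10b. The other immature granulocyte markers did not have that order. In Cxcr2-/- mice 1 to 4 the secondary granule gene Ngp was at 24263, 20447, 22375 and 17243 CPM. Chil3 was at 5705, 5229, 3551 and 4802 CPM. Mki67 was lowest in Cxcr2-/- mouse 1 and Top2a in mouse 3. The Tnfrsf10b levels of these mice were close together, so that their order is uncertain. The part of cell stage in the level of Tnfrsf10b was not tested.

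The genes whose pattern over the 8 libraries was most like that of Tnfrsf10b were Hist1h2bk, Ifitm6, Cdca8, Ada and Cdca3. Likeness was the root mean square difference in log2 CPM after each gene was centred on its own mean. It rests mainly on the difference between the groups for which Tnfrsf10b was chosen, and these genes had log2 fold changes of 2.07 to 2.19, so the list is a description of genes with the same fold change. The root mean square difference was 0.18, 0.20, 0.21, 0.21 and 0.22 for these genes against a median of 1.10 over 6909 protein-coding genes of at least moderate level. Cdca8 and Cdca3 are genes of cell division, Hist1h2bk encodes a histone, Ada adenosine deaminase and Ifitm6 a membrane protein of the interferon-induced family. Cdca8 went from 7.12 ± 0.534 to 32.5 ± 2.52 CPM and Ifitm6 from 469 ± 65.1 to 1990 ± 199 CPM.

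Tnfrsf10b has relatives in the mouse, Tnfrsf22, Tnfrsf23 and Tnfrsf26, which lie side by side on chromosome 7 and lack a working death domain. None of them rose. Tnfrsf23 fell (log2 fold change -0.77, SE 0.10, edgeR adjusted p = 8.41e-05), from 25.0 to 28.5 CPM in WT to 14.4 to 18.1 CPM in Cxcr2-/- libraries, without overlap. Tnfrsf22 (1.87 ± 0.134 and 1.53 ± 0.272 CPM) had a log2 fold change of -0.29 (SE 0.22, edgeR adjusted p = 0.302). Tnfrsf26 (5.79 ± 0.548 and 4.82 ± 0.745 CPM) had one of -0.26 (SE 0.16, edgeR adjusted p = 0.202).

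Fas, the death receptor for Fas ligand, was 1.93-fold lower in Cxcr2-/- than in WT neutrophils (log2 fold change -0.95, SE 0.11, edgeR adjusted p = 3.38e-05). It is listed as ENSMUSG00000024778 at chr19:34290666-34327772. Fas was at 58.2, 42.0, 51.6 and 51.2 CPM in WT mice 1 to 4 and at 25.6, 30.5, 25.4 and 23.9 CPM in Cxcr2-/- mice 1 to 4. Every Cxcr2-/- library was below every WT library. Its ligand gene Fasl had between 2 and 31 counts per library and was not tested.

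The TNF receptors fell unequally. Tnfrsf1a, which binds TNF and carries a death domain, is listed as ENSMUSG00000030341 at chr6:125349362-125362484 and was at 582.6, 518.2, 506.7 and 549.8 CPM in WT mice 1 to 4 and at 518.4, 417.1, 411.1 and 394.1 CPM in Cxcr2-/- mice 1 to 4. Cxcr2-/- mouse 1 was within the WT range and the other 3 were below it. The log2 fold change was -0.31 (SE 0.11, edgeR adjusted p = 0.0345), and the call was lost when WT 1, WT 4 or Cxcr2-/- 2, 3 or 4 was left out, with edgeR adjusted p of 0.0908, 0.0856, 0.0888, 0.0739 and 0.0787. Tnfrsf1b, the TNF receptor without a death domain, is listed as ENSMUSG00000028599 at chr4:145213463-145246870 and was at 357.6, 401.4, 287.6 and 354.1 CPM in WT mice 1 to 4 and at 191.9, 162.1, 204.4 and 205.9 CPM in Cxcr2-/- mice 1 to 4. It fell in all 4 Cxcr2-/- libraries without overlap, 1.83-fold, with a log2 fold change of -0.87 (SE 0.12, edgeR adjusted p = 8.09e-05).

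The log2 ratio of Tnfrsf1b to Tnfrsf1a counts within a library does not depend on the normalization. It was -0.70, -0.37, -0.82 and -0.63 in WT mice 1 to 4 and -1.43, -1.36, -1.01 and -0.94 in Cxcr2-/- mice 1 to 4. All Cxcr2-/- values were below all WT values. The mean went from -0.63 ± 0.19 to -1.19 ± 0.25, a difference of -0.55 (exact permutation test, two-sided, p = 0.0286, the smallest that 4 against 4 can give). Tnfrsf1b thus fell more than Tnfrsf1a in the Cxcr2-/- libraries.

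Ltbr, the lymphotoxin beta receptor, did not pass. It is listed as ENSMUSG00000030339 at chr6:125306571-125313885, 35.5 kb from Tnfrsf1a on the same chromosome. Its level was 96.8, 86.0, 82.9 and 93.0 CPM in WT mice 1 to 4 and 109.4, 86.4, 87.6 and 80.8 CPM in Cxcr2-/- mice 1 to 4, with the groups overlapping. The log2 fold change was 0.022 (SE 0.11, 95% interval -0.21 to 0.25, edgeR adjusted p = 0.883), and its sign changed with the scaling.

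Markers of macrophages and monocytes were measured beside Fas and the TNF receptors. Their summed level was 442 to 540 CPM in WT and 201 to 295 CPM in Cxcr2-/- libraries. Of 7 markers 2 fell (28.6%, against 21% of all genes tested) and 5 did not pass. Those that fell were Csf1r (442 ± 41.1 to 232 ± 42.1 CPM) and Adgre1 (30.6 ± 4.59 to 12.3 ± 3.17 CPM), and Csf1r made up most of the sum. Only Cd163 among the 7 was at 0 in a library. The covariate for other cells pooled the markers of B cells, of T and NK cells and of macrophages and monocytes. This mean log2 of CPM plus 1 was 2.19 to 2.84 in WT and 1.84 to 2.53 in Cxcr2-/- libraries, which tended lower. The pooled genes did not move together. Mean Cd3d was 99.1 CPM in WT and 108 CPM in Cxcr2-/- libraries, where Cd3e was at 0.206 and 0.0935 CPM. Nkg7 rose (log2 fold change 2.48, edgeR adjusted p = 9.40e-04) while 5 of 6 B cell markers fell. The covariate is thus a rough measure of other cells. With this covariate in the fit, Fas had a log2 fold change of -1.07 (edgeR adjusted p = 8.44e-05) and Tnfrsf1b one of -0.75 (edgeR adjusted p = 0.00112). Tnfrsf1a had -0.38 and lost the call (edgeR adjusted p = 0.0506).

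The 250 bases before the transcription start are shown for Fas and Tnfrsf1b, the members that fell without overlap, and for Fadd, an adaptor that rose. They are RefSeq sequences of GRCm38.p6, which held 6 of the 8 members (not Tnfrsf10b and Tradd), at chr19:34290409-34290658 on the plus strand for Fas, and on the minus strand at chr4:145246871-145247120 for Tnfrsf1b and chr7:144582442-144582691 for Fadd. Capitals mark matches on either strand to GGGCGG (the GC box), TGANTCA (the AP-1 motif), CCGGAAG (an ETS motif), TTNNGNAA (the C/EBP motif) and the NF-kB motif.
Fas: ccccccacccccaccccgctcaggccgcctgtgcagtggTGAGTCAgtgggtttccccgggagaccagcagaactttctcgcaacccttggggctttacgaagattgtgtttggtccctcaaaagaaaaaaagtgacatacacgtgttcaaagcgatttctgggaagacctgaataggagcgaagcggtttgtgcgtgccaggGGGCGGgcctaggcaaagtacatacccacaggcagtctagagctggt
Tnfrsf1b: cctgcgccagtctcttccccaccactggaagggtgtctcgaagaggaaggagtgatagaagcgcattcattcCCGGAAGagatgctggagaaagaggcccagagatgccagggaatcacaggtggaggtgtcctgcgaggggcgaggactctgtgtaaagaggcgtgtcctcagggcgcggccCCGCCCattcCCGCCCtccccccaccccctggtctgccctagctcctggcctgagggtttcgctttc
Fadd: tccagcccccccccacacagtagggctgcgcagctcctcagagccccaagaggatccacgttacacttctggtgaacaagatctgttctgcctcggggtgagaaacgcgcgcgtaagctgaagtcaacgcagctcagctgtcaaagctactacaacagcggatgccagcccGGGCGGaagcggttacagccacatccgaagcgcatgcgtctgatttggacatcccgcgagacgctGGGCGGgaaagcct
The Fas sequence held 1 AP-1 match, which starts 211 bases before the transcription start, and 1 GC box at 47 bases. Tnfrsf1b held 2 GC boxes, at 67 and 57 bases, and 1 ETS match at 178 bases. Fadd held 2 GC boxes, at 79 and 14 bases. No letters of the NF-kB or C/EBP motif were found in these 3 windows. Over all 32536 RefSeq promoters of this length, 33% held a GC box, 6.73% the AP-1 motif, 6.95% the ETS motif, 36.8% the C/EBP motif and 3.92% the NF-kB motif.

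Across the TNF receptor superfamily, 20 of 28 listed genes passed the filter on low counts, and the other 8 had at most 12 counts in any library. Of the 19 besides Tnfrsf10b, 3 were higher (15.8%, against 23.7% of all genes tested), 6 were lower (31.6%, against 21%) and 10 did not pass. In all 47.4% passed, near the 44.7% of all genes. The median log2 fold change was -0.29 against 0.013 over all genes tested. Besides Tnfrsf10b, the receptors that rose were Tnfrsf13b (TACI, which binds the B cell factors BAFF and APRIL), Tnfrsf21 (DR6, a receptor with a death domain) and Tnfrsf14 (HVEM, the receptor for LIGHT). Tnfrsf13b went from 6.94, 5.06, 6.44 and 4.48 CPM in WT mice 1 to 4 to 13.5, 12.1, 18.5 and 16.5 CPM in Cxcr2-/- mice 1 to 4, a log2 fold change of 1.40 (SE 0.18, edgeR adjusted p = 4.47e-05). Tnfrsf21 rose by 0.56 and Tnfrsf14 by 0.49 on the log2 scale. These 3 receptors had no overlap between the groups.

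The receptors that fell were Tnfrsf13c, Fas, Tnfrsf1b, Tnfrsf23, Relt and Tnfrsf1a. Tnfrsf13c (the BAFF receptor of B cells) was at 2.896, 1.29, 2.51 and 1.79 CPM in WT mice 1 to 4 and at 0.455, 0.332, 1.07 and 1.118 CPM in Cxcr2-/- mice 1 to 4, a log2 fold change of -1.502 (SE 0.40, edgeR adjusted p = 0.00804). B cell markers moved with it, since 5 of 6 fell (83.3%, against 21% of all genes tested). Their summed level was 63.1 to 143 CPM in WT and 28.3 to 63.4 CPM in Cxcr2-/- libraries, and none of these markers was at 0. With the covariate for other cells, Tnfrsf13c (-1.03, edgeR adjusted p = 0.0641) and Tnfrsf14 (0.37, edgeR adjusted p = 0.0539) no longer passed. Relt, an orphan receptor, had a log2 fold change of -0.33 with overlapping groups, and leaving out WT 1, WT 4 or Cxcr2-/- 2, 3 or 4 ended its call (edgeR adjusted p up to 0.100).

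**Figure D2:**
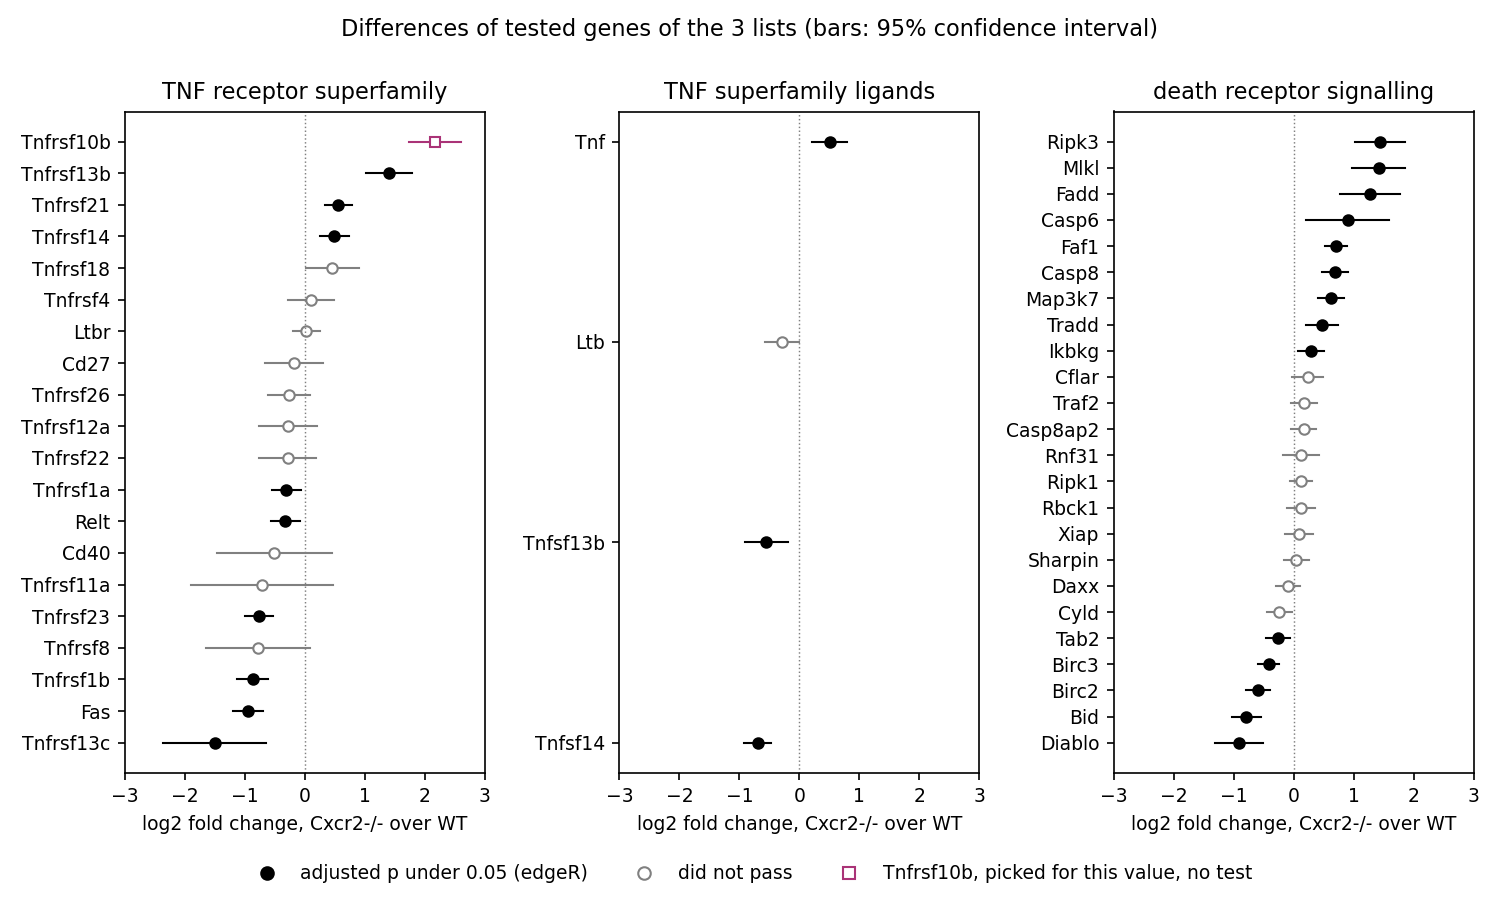
Log2 fold change, Cxcr2-/- over WT (horizontal axes), of the tested genes of the TNF receptor superfamily, the TNF ligands and the death receptor signalling list that are reported here, with bars for the 95% confidence interval. Filled points passed an adjusted p under 0.05, open circles did not, and 6 receptors are filled points below 0. The open square is Tnfrsf10b, the topmost receptor at 2.17. It was picked for this value, so its bar is a description and not a test.

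Most ligand genes of the family had few counts in these neutrophils. Tnfsf10, which encodes TRAIL, the ligand of Tnfrsf10b, is listed as ENSMUSG00000039304 at chr3:27317028-27342427. It had 4, 10, 6 and 8 counts in WT mice 1 to 4 and 0, 6, 0 and 8 counts in Cxcr2-/- mice 1 to 4. The highest level was 0.231 CPM, in WT mouse 4, and a difference was not detectable at this depth. A count of 0 in Cxcr2-/- mice 1 and 3 allows a level of up to 0.0758 and 0.0762 CPM, for counting error only. All Tnfsf10 counts were even, and if both mates of a pair were counted the limits would be 0.152 CPM in both mice. Of 18 ligand genes 14, with at most 31 counts in any library, did not pass the filter.

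The 4 ligand genes that were tested included Tnf, the ligand of both TNF receptors, which rose while its receptors fell. Tnf was at 39.8, 27.6, 33.97 and 37.3 CPM in WT mice 1 to 4 and at 56.4, 48.7, 51.9 and 39.3 CPM in Cxcr2-/- mice 1 to 4, with Cxcr2-/- mouse 4 within the WT range and the other 3 above it. The log2 fold change of Tnf was 0.50 (SE 0.13, edgeR adjusted p = 0.00831), and with the covariate for other cells it was 0.34 (edgeR adjusted p = 0.119). Tnfsf14 (LIGHT, a ligand of Tnfrsf14 and Ltbr) fell from 178, 138, 149 and 156 CPM to 109, 87.6, 94.5 and 92.7 CPM, without overlap (log2 fold change -0.70, SE 0.10, edgeR adjusted p = 1.72e-04). Tnfsf13b (BAFF, a survival factor of B cells) was at 56.1, 51.6, 58.4 and 58.1 CPM in WT and at 51.6, 42.8, 26.7 and 32.2 CPM in Cxcr2-/- mice, with a log2 fold change of -0.55 (SE 0.17, edgeR adjusted p = 0.0169). Cxcr2-/- mouse 1 was just under the lowest WT mouse and the other 3 were further below. Ltb, a subunit of the ligand of Ltbr, did not pass (250 ± 44.0 and 205 ± 24.3 CPM, log2 fold change -0.29, edgeR adjusted p = 0.0881).

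Both adaptors rose. Fadd, which links Fas and Tnfrsf10b to Casp8, is listed as ENSMUSG00000031077 at chr7:144577318-144582463 and was at 1.503, 1.47, 2.03 and 1.10 CPM in WT mice 1 to 4 and at 4.15, 3.07, 4.35 and 3.14 CPM in Cxcr2-/- mice 1 to 4. The groups did not overlap, and the log2 fold change was 1.27 (SE 0.23, edgeR adjusted p = 7.09e-04), 2.41-fold. An antisense gene, Faddos, overlaps exons of Fadd and had a median of 4.5 counts per library, so that some counts could belong to either. Tradd, which binds Tnfrsf1a, is listed as ENSMUSG00000031887 at chr8:105258286-105264609 and was at 11.8, 8.88, 10.3 and 10.4 CPM in WT mice 1 to 4 and at 15.8, 13.1, 14.1 and 14.3 CPM in Cxcr2-/- mice 1 to 4. It rose 1.39-fold without overlap (log2 fold change 0.47, SE 0.12, edgeR adjusted p = 0.00714).

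Downstream of the receptors, all 26 listed signalling genes were tested, and 10 were higher (38.5%, against 23.7% of all genes tested), 5 were lower (19.2%, against 21%) and 11 did not pass. The median log2 fold change was 0.14 against 0.013 over all genes. The necroptosis genes led those that rose. Ripk3, the kinase that starts necroptosis, was at 4.55, 7.01, 3.98 and 4.80 CPM in WT mice 1 to 4 and at 13.3, 11.6, 17.5 and 12.8 CPM in Cxcr2-/- mice 1 to 4 (log2 fold change 1.44, SE 0.19, edgeR adjusted p = 6.84e-05). Mlkl, the membrane-breaking protein that Ripk3 activates, went from 1.30, 1.97, 1.66 and 1.19 CPM to 3.82, 3.76, 4.40 and 4.38 CPM (log2 fold change 1.41, SE 0.21, edgeR adjusted p = 1.45e-04). Neither gene had overlapping groups.

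The initiator caspase gene Casp8 rose by 0.69 and Casp6, which encodes an executioner caspase, by 0.90 on the log2 scale. Casp8 was at 18.8 to 23.8 CPM in WT and 34.3 to 37.1 CPM in Cxcr2-/- libraries, without overlap. Casp6 was at 2.31 to 3.22 CPM in WT and at 3.39, 2.66, 8.67 and 5.69 CPM in Cxcr2-/- mice 1 to 4. Its groups overlapped, with Cxcr2-/- mouse 2 within the WT range. Cflar, the inhibitor of Casp8, did not pass (185 ± 22.2 and 217 ± 27.3 CPM, log2 fold change 0.23, edgeR adjusted p = 0.129). Faf1 (a Fas-binding protein, 0.70), Map3k7 (the kinase TAK1, 0.61) and Ikbkg (the NF-kB kinase subunit NEMO, 0.28) also rose on the log2 scale. The call of Casp6 was lost when any WT library (edgeR adjusted p 0.0558, 0.0524, 0.0951 and 0.0844 without WT 1 to 4) or Cxcr2-/- 3 (0.158) or 4 (0.0727) was left out. With total counts, upper-quartile scaling and the replicate block, the call of Casp6 was lost too, in all in 9 of 17 alternative fits. That of Ikbkg was lost in 12 of 17 alternative fits, among them those without WT 1, 2 or 3 or Cxcr2-/- 1 or 2 (edgeR adjusted p up to 0.107 in these 5).

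The genes that fell were Diablo (an antagonist of inhibitor of apoptosis proteins, -0.91), Bid (the link from Casp8 to mitochondria, -0.79), Birc2 and Birc3 (the ubiquitin ligases cIAP1 and cIAP2, -0.59 and -0.42) and Tab2 (a partner of Map3k7, -0.26 on the log2 scale). Bid was at 91.6 to 125 CPM in WT and 56.5 to 66.5 CPM in Cxcr2-/- libraries, Birc2 at 66.4 ± 2.34 and 44.0 ± 4.66 CPM and Birc3 at 233 ± 10.9 and 175 ± 3.59 CPM. Diablo (12.0 ± 1.97 and 6.36 ± 1.56 CPM) shares exon sequence with the gene model Gm49027, so that its counts are uncertain. Tab2 lost its call without WT 1 or 4 or Cxcr2-/- 1, 3 or 4 (edgeR adjusted p of 0.0523 to 0.110). Ripk1, the kinase of the Tnfrsf1a complex, did not pass (104 ± 6.28 and 113 ± 6.19 CPM, edgeR adjusted p = 0.266). It shares exon sequence with the pseudogene Gm17084.

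**Figure D3:**
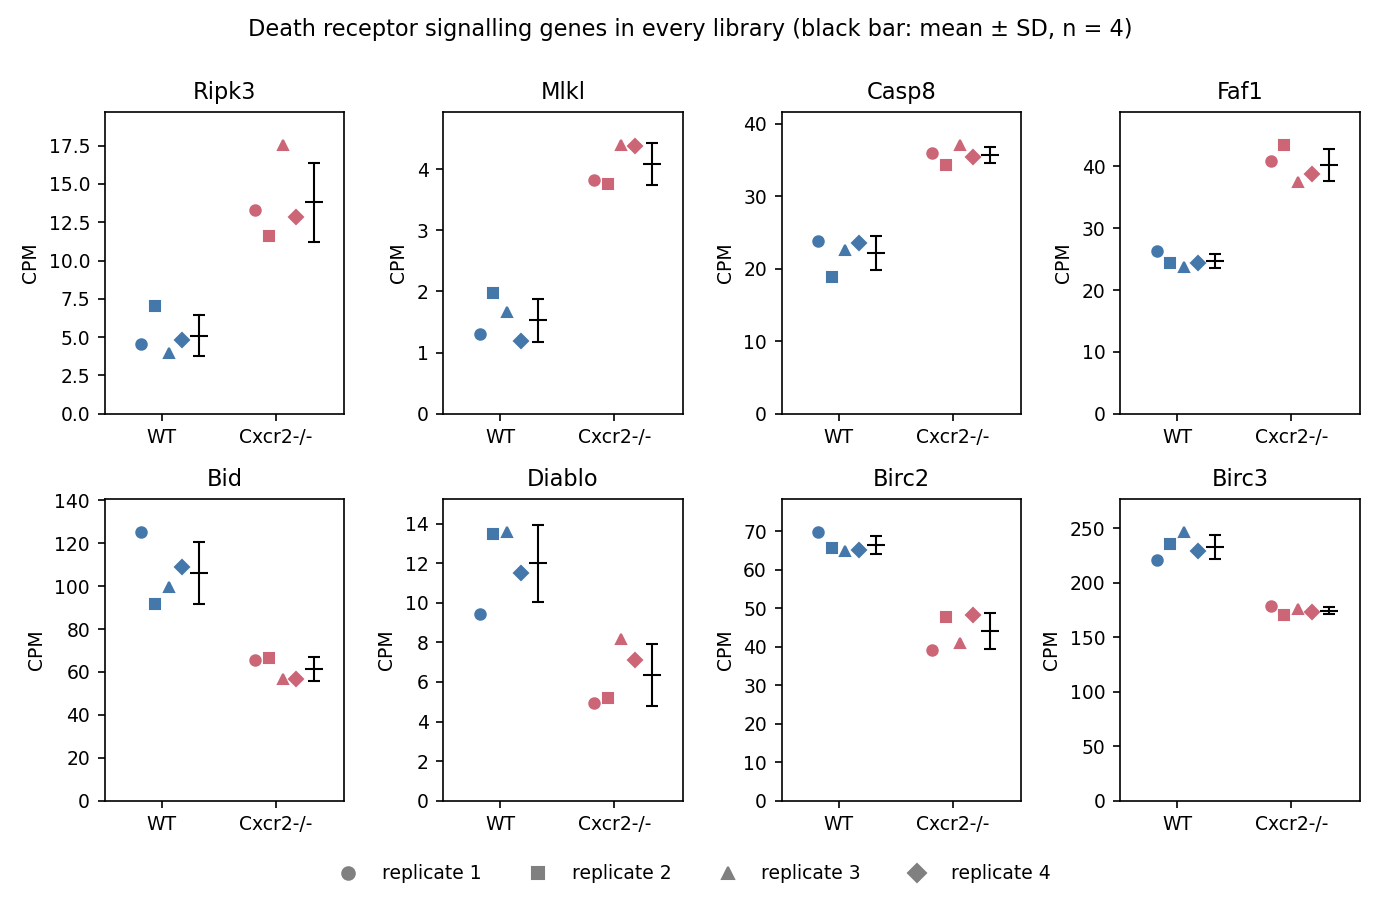
Level in CPM (vertical axes, from 0) of 8 death receptor signalling genes in the 4 WT and 4 Cxcr2-/- libraries, with a marker for each replicate number and a bar for the mean ± SD. Ripk3, Mlkl, Casp8 and Faf1 are higher and Bid, Diablo, Birc2 and Birc3 lower in every Cxcr2-/- library than in every WT library.

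Genes that respond to p53 and genes of the CHOP arm of the unfolded protein response, stress pathways that can induce TRAIL receptors, were counted in the same libraries. Of 14 tested p53-responsive genes, 3 were higher (21.4%, against 23.7% of all genes tested) and 5 lower (35.7%, against 21%), with a median log2 fold change of -0.35. The largest changes were falls of Pmaip1 (Noxa, from 101 to 121 CPM in WT to 15.1 to 38.5 CPM in Cxcr2-/- libraries, log2 fold change -2.17) and Btg2 (an antiproliferative gene, from 1174 to 1374 CPM to 351 to 414 CPM, -1.80). Perp (1.12), Ei24 (0.38) and Ccng1 (0.28 on the log2 scale, edgeR adjusted p = 0.0486) rose, and Mdm2, the inhibitor of p53, had a log2 fold change of 0.019 and did not pass. Of 9 genes of the CHOP arm, 3 were higher (33.3%) and 5 lower (55.6%), with a median of -0.50. Ppp1r15a (GADD34, 159 to 249 CPM in WT and 21.1 to 54.5 CPM in Cxcr2-/- libraries, -2.41) and Ddit3, which encodes CHOP itself (35.7 to 45.9 and 14.0 to 17.5 CPM, -1.34), fell most. Ddit3 shares exon sequence with another gene model of the same name, so that its counts are uncertain. Ero1l and Asns rose by 0.96 each and Dnajc3 by 0.31 on the log2 scale. The part of either pathway in the level of Tnfrsf10b was not tested.

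Per kb of exon, which allows levels of different genes to be compared, the order in WT was Tnfrsf1a (208 ± 13.2 CPM per kb), Tnfrsf1b (91.7 ± 12.3), Ltbr (38.1 ± 2.70), Fas (24.6 ± 3.23), Tradd (5.54 ± 0.630), Fadd (0.391 ± 0.0983), Tnfrsf10b (0.364 ± 0.106) and Tnfsf10 (0.0323 ± 0.0117). Of the neighbours in this order, Fadd and Tnfrsf10b overlapped in WT and the others did not. In Cxcr2-/- libraries Tnfrsf1a was at 168 ± 21.7 CPM per kb, Tnfrsf1b at 50.0 ± 5.32, Ltbr at 38.7 ± 5.36 and Fas at 12.8 ± 1.39. Tnfrsf1b and Ltbr overlapped there, with 42.5 to 53.9 and 34.3 to 46.5 CPM per kb. Tnfrsf10b, at 1.64 ± 0.110 CPM per kb, was above Fadd (0.941 ± 0.170) in the Cxcr2-/- libraries and remained well under Tradd (7.67 ± 0.612). Fas, the other death receptor that binds Fadd, was still the higher of the pair in Cxcr2-/- libraries, at 11.6 to 14.8 CPM per kb against 1.498 to 1.76 for Tnfrsf10b.

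**Figure D4:**
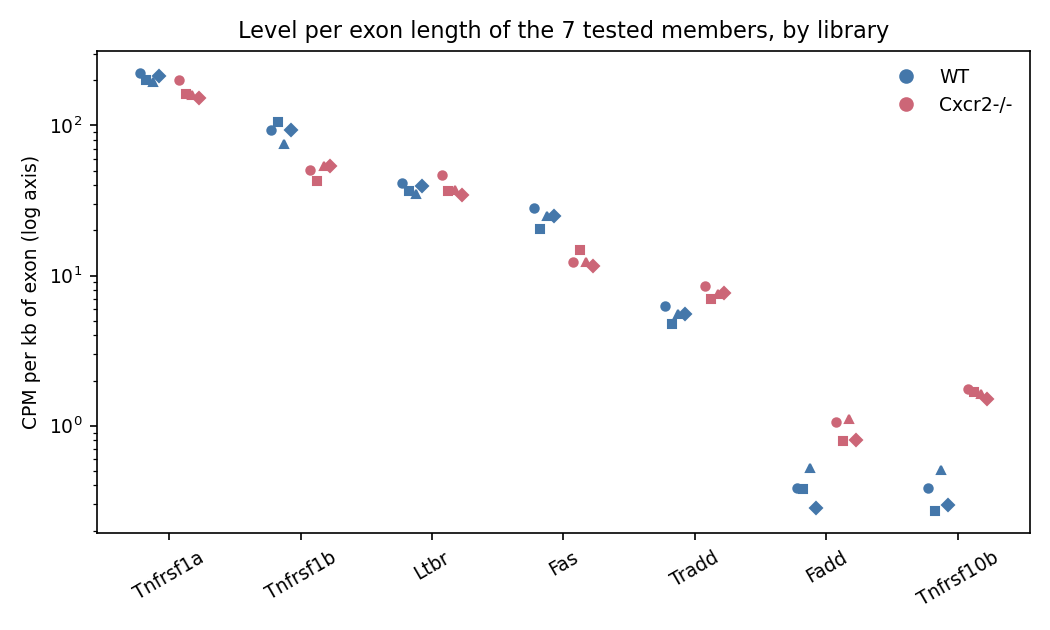
Level in CPM per kb of exon (vertical log axis) of the 7 tested members, ordered by their WT mean, with 1 point per library in the 4 WT and 4 Cxcr2-/- mice. In WT Fadd and Tnfrsf10b lie together at the bottom, and in Cxcr2-/- libraries Tnfrsf10b lies above Fadd, at 1.64 CPM per kb.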

How the data were processed

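RNAseq counts of sorted spleen neutrophils from 4 WT and 4 Cxcr2-/- mice were used. RNA was depleted of ribosomal RNA and sequenced from both ends in directional libraries. The authors aligned trimmed reads to mm10 with STAR, and the deposited HTSeq counts are whole numbers per Ensembl gene without normalization. The strand setting and annotation release are not given in the sources used here. Names, positions and exon lengths came from GENCODE M21 (GRCm38), which holds 52081 of the 55414 identifiers. The counts carry later identifier versions for 52044 of these genes, and 1.43% of counts lie on genes outside M21. Low counts (1 to 20) were even in 64.8% to 70.1% of genes against 49.1% to 50.7% for counts of 200 to 2000, so mates of a pair may have been counted apart. HTSeq's totals outside genes, of which reads without a feature were 31.4% to 41.5% of all in WT and 26.7% to 31.9% in Cxcr2-/- libraries, were left out.

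Counts were tested in R 4.3.3 with edgeR 4.0.16 (quasi-likelihood test, TMM, filterByExpr, Benjamini-Hochberg adjustment), and ratios by an exact permutation test in SciPy 1.17.1. The spread between mice was 0.202 (edgeR's biological coefficient of variation). With counts simulated for 16778 genes in this comparison, edgeR called 100% of 4-fold and 95% of 2-fold changes and 19 unchanged genes. Only 200 genes were changed, far fewer than were called in the data. They were drawn from genes with a higher WT level than Tnfrsf10b, Fadd, Mlkl or Tnfrsf13c, so the rates do not cover genes this low. Replicates differed beyond sampling noise in every pair of a group.

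The members and lists were chosen with earlier results of these data known. Named genes are the members, every called gene of the receptor, ligand and signalling lists, Tnfrsf22, Tnfrsf23 and Tnfrsf26, the 2 largest called changes of the p53 and CHOP lists, the 5 genes most like Tnfrsf10b among those with a mean log2 CPM of at least 3, and Cxcr2, and some genes that fall under this rule are counted but not reported here. Cflar, Ripk1, Ltb, Fasl, single markers, the p53 and CHOP genes that rose and Mdm2 were picked with their values in view. Alternatives were DESeq2 1.42.0, other scalings and filters, a replicate block, a covariate for other cells (mean log2 of CPM plus 1 over their markers), a 1.5-fold threshold, each library left out and, added after seeing the data, counts divided by 2. Marker lists not described with a gene were T and NK cells (1 of 6 tested higher), eosinophils (2 higher and 2 lower of 4), erythroid cells and platelets (0 of 2 called) and neutrophil identity (6 higher and 4 lower of 11).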

Additional observations from a re-analysis of the deposited data

How the results depend on the processing

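Fas, Tnfrsf1b, Fadd and Tradd kept their direction and their call in every alternative fit run, those without 1 library included, and Tnfrsf10b kept its direction. Tnfrsf1a lost its call with the covariate for other cells (-0.38) and ranged from -0.40 to -0.27 when 1 library was left out. The log2 fold change of Ltbr, which did not pass, changed sign with RLE scaling (-0.00046), upper-quartile scaling (-0.099), total counts (-0.073), a minimum of 10 counts in every library (-0.018), the covariate (-0.063) and counts divided by 2 (-0.0089, chosen after seeing the data), and ranged from -0.073 to 0.064 with 1 library left out. With Tnfrsf10b left out, a change of at least 1.5-fold left 1 receptor higher (Tnfrsf13b), 0 ligands higher and 1 lower, and 3 signalling genes lower. The covariate left 0 ligands higher. The number of ligands called lower was 2 to 4 with 1 library left out, being 4 without Cxcr2-/- 1. The log2 ratio of Tnfrsf1b to Tnfrsf1a differed by -0.64 to -0.47 with 1 library left out, each at p = 0.0571, the smallest that an exact permutation test of 3 against 4 can give. Upper-quartile scaling moved the median log2 fold change of all genes by -0.12 and the calls to 3076 higher and 4391 lower (3969 and 3526 with TMM), and the median of the signalling list from 0.14 to 0.023. No called gene of the receptor, ligand and signalling lists changed sign in any fit.

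Mice with the same replicate number did not clearly deviate together (correlations -0.26 to 0.16, and 3 of 8 libraries correlated best with their own number). Such correlations cannot exclude that mice of the same number were handled together, so whether the numbers pair the samples is not settled. With the replicate block the log2 fold change was 2.20 for Tnfrsf10b, -0.94 for Fas, -0.87 for Tnfrsf1b and 1.28 for Fadd, and 8 signalling genes were higher and 4 lower. The low counts of Tnfsf10, Tnfrsf13c, Mlkl and Fadd limit the precision of their levels.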
